A study of Mus musculus with 14 samples.

Results

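The 34 genes described here encode the proteins that make, limit and dissolve the fibrin clot. They were chosen by symbol from the 17656 genes listed in each deposited table, and all 34 were found. By role, 18 are procoagulant (clotting factors, the contact system and the structure of fibrin), 8 are anticoagulant and 8 belong to fibrinolysis or its inhibitors. The libraries came from the livers of 14 mice on the C57BL/6 background, 1 library per mouse, and carried no other labelled allele. WT littermates and Ythdf1 knockout mice (KO, whole-animal CRISPR/Cas9 deletion) received saline or concanavalin A (ConA, 8 mg/kg into the tail vein) and were sampled at 8 h, which gave 3 WT and 3 KO mice under saline and 4 WT and 4 KO mice under ConA. The sample records used here list an age of 8 weeks for all 14 mice. The methods of the study give 6 to 10 weeks for its mice in general. YTHDF1 is a cytoplasmic reader of N6-methyladenosine in mRNA, and ConA is a plant lectin that activates T cells and produces an acute hepatitis. All values are TPM, a length-corrected share of each library scaled to a total of 1000000, so levels of different genes can be set side by side within a library.

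Hepatocytes secrete most plasma clotting factors, their inhibitors and plasminogen. Tissue factor starts the extrinsic pathway with factor VII, the contact system starts the intrinsic pathway, and both converge on prothrombin, whose active form turns fibrinogen into fibrin. Antithrombin and the thrombomodulin and protein C system restrain thrombin, while plasmin dissolves fibrin. Fibrinogen is a classical acute-phase protein of the liver, and its genes are known to respond to IL-6 through STAT3 and C/EBP factors.

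Upstream sequences are shown for the genes on which the results turn, namely the 3 fibrinogen chains and Cpb2, which were raised by ConA, and Klkb1 and Proz, which had the largest declines among the procoagulant and the vitamin K dependent genes. Each is the 150 bases before a RefSeq start of transcription in GRCm38.p6, written 5′ to 3′ on the strand of the gene. For Proz this start lies inside the annotated gene, which begins at chr8:13060584. The bases upstream of the whole Proz gene are therefore not shown. Capitals mark matches on either strand to CTGGGAA (core of the IL-6 response element), TTCNNNGAA (STAT), TTGCNNAA (C/EBP) or GTTAATNAT (HNF1).
Fga (chr3:83026003-83026152, + strand): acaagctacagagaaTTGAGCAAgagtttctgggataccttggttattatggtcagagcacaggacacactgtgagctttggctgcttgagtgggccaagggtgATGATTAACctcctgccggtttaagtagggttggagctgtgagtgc
Fgb (chr3:83049864-83050013, - strand): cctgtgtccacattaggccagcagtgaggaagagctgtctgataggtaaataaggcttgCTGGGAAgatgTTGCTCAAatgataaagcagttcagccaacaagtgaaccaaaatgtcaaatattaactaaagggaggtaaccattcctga
Fgg (chr3:83007574-83007723, + strand): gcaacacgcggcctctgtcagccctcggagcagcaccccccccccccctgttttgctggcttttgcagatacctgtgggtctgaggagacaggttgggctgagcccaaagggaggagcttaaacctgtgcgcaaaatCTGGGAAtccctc
Cpb2 (chr14:75242137-75242286, + strand): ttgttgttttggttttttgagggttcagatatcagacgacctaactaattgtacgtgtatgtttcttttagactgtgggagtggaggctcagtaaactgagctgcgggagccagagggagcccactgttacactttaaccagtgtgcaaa
Klkb1 (chr8:45294836-45294985, - strand): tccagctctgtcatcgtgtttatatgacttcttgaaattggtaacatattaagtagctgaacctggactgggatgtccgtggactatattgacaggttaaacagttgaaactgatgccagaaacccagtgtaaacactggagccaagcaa
Proz (chr8:13060758-13060907, + strand): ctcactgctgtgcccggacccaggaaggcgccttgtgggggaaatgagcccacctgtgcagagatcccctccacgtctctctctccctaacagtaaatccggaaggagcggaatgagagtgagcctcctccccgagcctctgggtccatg

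The Fga window held a C/EBP match and an HNF1 match, both on the reverse strand. In Fgb, a CTGGGAA core lay upstream of a C/EBP match, and Fgg held a CTGGGAA core 13 to 7 bases before the start. No match was found in the windows of Cpb2, Klkb1 and Proz. Over the 250 bases before the start, RefSeq gave promoters for 26 of the 34 genes. Of these, 4 held CTGGGAA (Fgb, Fgg, F9 and Tfpi), against 9.1% of all 32817 promoters of the same length. C/EBP matches were present in 9 of the 26 genes, against 9.57% of all promoters. The STAT pattern was found in 4 genes (Fga, Fgb, F9 and Pros1), against 7.01%, and the HNF1 pattern in 2 (Fga and F13b), against 0.737%. The CTGGGAA and STAT matches of F9 overlapped. These matches are a description of letters and were not tested as binding sites.

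Several properties of the libraries bear on the values. Ythdf1 itself was listed at 12.03 to 13.92 TPM in WT saline, and the KO saline libraries held 18.4 to 20.8 TPM, WT ConA 18.7 to 25.6 TPM and KO ConA 15.5 to 26.2 TPM. The whole-gene value therefore did not fall in the libraries labelled KO, and it does not show whether the deleted part was read. WT saline 2 and 3 were closer to each other than any other replicate pair, with a median absolute log2 ratio of 0.064 over 5160 genes against 0.11 to 0.39 in the other 17 pairs. Without read counts, it could not be tested whether they differ by more than sampling noise, so results that use WT saline are also given with these 2 libraries averaged. WT ConA 3 stood apart from its group (0.35 to 0.39, against 0.18 among the other 3), and so did KO ConA 3 (0.21 to 0.33, against 0.11 to 0.18). Without WT ConA 3, 9 members rose and 12 fell in WT after ConA, and without KO ConA 3, 11 rose and 13 fell in KO. The 8 hepatocyte markers summed to 104420 to 132050 TPM under saline and 52180 to 79737 TPM under ConA, so each library carried liver transcripts at high level. Summed markers of other cells also moved. The 6 neutrophil markers went from 5.27 to 11 TPM under saline to 315 to 944 under ConA, and 8 Kupffer cell markers from 49.9 to 182 to 15.0 to 72.5. Among the neutrophil markers, Ly6g did not rise in either genotype. It was at 0.57 to 5.04 TPM in WT saline and 0.18 to 1.64 in WT ConA. In bulk tissue, fewer cells of a type and less RNA per cell cannot be told apart.

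**Figure D1:**
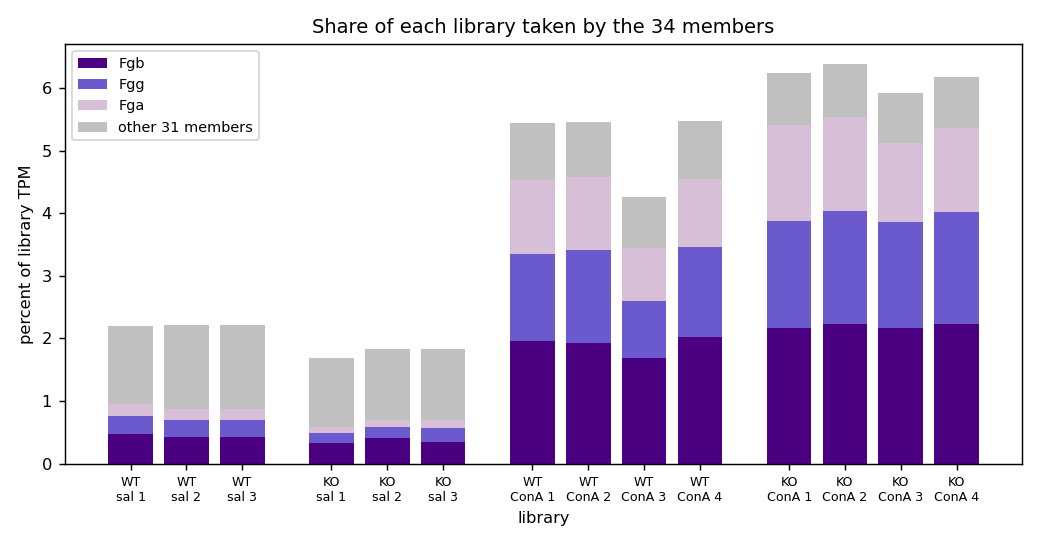
Percent of the summed TPM of each library (vertical axis) taken by the 3 fibrinogen chains and by the other 31 members, for the 14 libraries on the horizontal axis. Fibrinogen held 0.58% to 0.95% of the saline libraries and 3.45% to 5.54% of the ConA libraries, with WT ConA 3 the lowest of the latter.

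In the WT liver, ConA raised fibrinogen, the receptors of protein C and of urokinase, thrombomodulin, the fibrinolysis inhibitor Cpb2, Thbs1 and factor XI. At the same time it lowered the contact genes Klkb1 and Kng1, factors V, VII and IX and the factor XIII subunit F13b. Antithrombin, heparin cofactor II, proteins C and Z, plasminogen and Hrg also fell. Of the 29 members tested, 9 rose and 12 fell at a limma Benjamini-Hochberg adjusted p under 0.05, and 8 did not pass. Over all 10768 genes tested, 22% rose and 31% fell. The median log2 fold change was -0.14 over the 29 members and -0.072 over all genes. By role, 4 procoagulant genes rose and 6 fell of 15 tested (median -0.24), 2 anticoagulant genes rose and 4 fell of 8 (median -0.49), and 3 fibrinolytic genes rose and 2 fell of 6 (median 0.62). F8, F13a1, Vwf, Plat and Plau were too low to be tested. Procr, Thbd, Plaur and Thbs1 were below 1 TPM in every WT saline library. They passed the filter through the ConA libraries alone, so they could be called only as higher. Plaur and Thbs1 also enter the fibrinolytic median. With WT saline 2 and 3 averaged, F11 lost its call (8 higher and 12 lower), as it did without WT saline 2 or 3 or WT ConA 1 or 4 (adjusted p up to 0.137). F3 became the 13th gene called lower without WT ConA 1 or WT ConA 2.

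In KO mice, 13 of 30 tested members rose and 13 fell after ConA, while 4 did not pass. Among all 10988 genes tested in this genotype, 33.9% rose and 30.7% fell. The median was 0.028 over the members and 0.069 over all genes. Each of the 9 genes that rose in WT also rose in KO. In KO too, Procr, Thbd and Plaur were below 1 TPM in every saline library, and Thbs1 in all but KO saline 1 (1.1 TPM). These genes would not have passed the filter without the ConA libraries. Of the 12 genes that fell in WT, 11 fell in KO and F13b did not pass (log2 fold change 0.015 ± 0.16). F2, F3, Pros1 and Serpinf2 rose and F10 and F12 fell in KO without passing in WT, which by itself does not show that the genotypes differ. Some of these calls rested on single libraries. F2 was not called without KO ConA 1, 2 or 4 or KO saline 1 or 2, F10 without KO ConA 1 or 4 or KO saline 1 or 2, and F11 without KO ConA 1 or 2 or KO saline 2 or 3. Plg was not called without KO ConA 4 or KO saline 2, and Serpinf2 without KO ConA 3 or 4 or KO saline 1 or 3. Their adjusted p-values reached 0.118, 0.0802, 0.0726, 0.0721 and 0.14 at most in these leave-one-out fits.

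**Figure D2:**
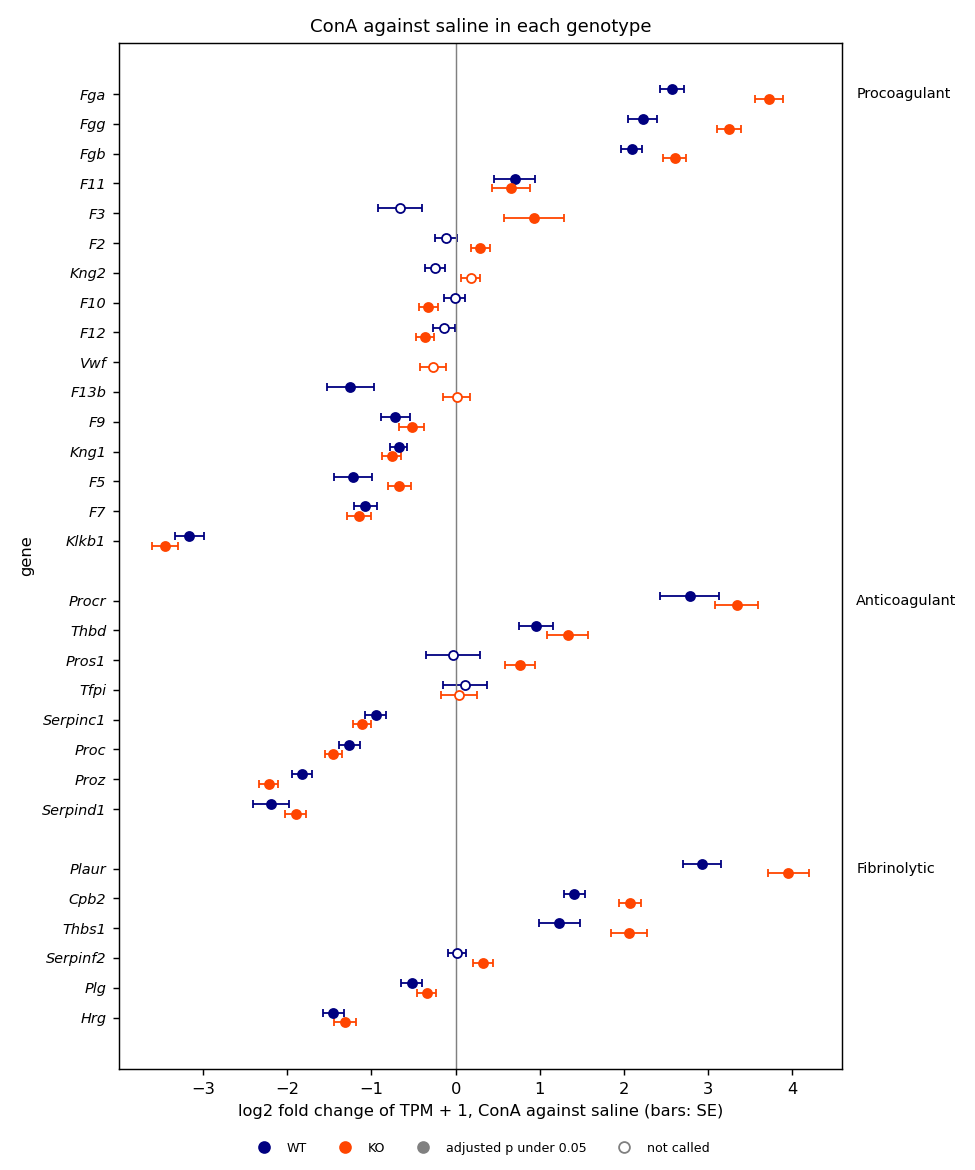
Log2 fold change of TPM + 1 between ConA and saline (horizontal axis, bars are SE) for each tested member (vertical axis, by role), in WT mice (blue) and KO mice (orange). Filled points passed an adjusted p under 0.05, and the fibrinogen chains, Procr and Plaur lie above 2 in both genotypes while Klkb1 lies below -3.

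Fibrinogen is a hexamer of paired α, β and γ chains, which Fga, Fgb and Fgg encode next to each other on chromosome 3 (chr3:83007724-83015056, chr3:83026153-83033627 and chr3:83042246-83049863). The level of Fga was 1859.5, 1769 and 1751 TPM in WT saline, 844, 1074 and 1316 in KO saline, 11840.0, 11666, 8469.8 and 10918 in WT ConA and 15307, 15045, 12594 and 13323 in KO ConA. Fgb was present at 4809, 4285 and 4241 TPM in WT saline and 3357, 4056 and 3493 in KO saline, against 19534, 19336, 16823 and 20302 in WT ConA and 21598, 22382, 21599 and 22239.6 in KO ConA. For Fgg, WT saline gave 2861, 2687 and 2726 TPM, KO saline 1598, 1834 and 2141, WT ConA 13879.9, 14718, 9221 and 14305 and KO ConA 17182, 17995, 17061 and 18007. All 4 groups were separate from each other for each of the 3 chains, with KO saline lowest and KO ConA highest. Within the WT ConA group, library 3 was the lowest for each chain, and its Fgg lay well below the other 3.

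The ConA response of Fga was a log2 fold change of 2.57 ± 0.14 (SE) in WT (adjusted p = 1.57e-06) and 3.72 ± 0.17 in KO (adjusted p = 2.96e-08). Fgg rose by 2.22 ± 0.17 in WT and 3.25 ± 0.14 in KO, and Fgb by 2.09 ± 0.12 and 2.60 ± 0.14. Together the chains took 0.900% ± 0.046 (SD, n = 3) of the WT saline libraries, 0.657% ± 0.067 (n = 3) of KO saline, 4.28% ± 0.55 (n = 4) of WT ConA and 5.36% ± 0.17 (n = 4) of KO ConA. Without fibrinogen, the summed share of the other 31 members moved the opposite way, from 1.31% ± 0.059 and 1.13% ± 0.018 under saline to 0.885% ± 0.051 and 0.823% ± 0.019 under ConA. Single members among them, such as Cpb2 and Plaur, rose. The chains also changed relative to each other. In WT livers, Fga was at 0.387 to 0.413 of the TPM of Fgb under saline and at 0.503 to 0.606 under ConA, and in KO livers at 0.251 to 0.377 and at 0.583 to 0.709. The ratio of Fgg to Fgb lay between 0.595 and 0.643 in WT under saline and between 0.548 and 0.761 after ConA. In KO it lay between 0.452 and 0.613 under saline and between 0.79 and 0.81 after ConA.

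The common pathway did not follow fibrinogen. Prothrombin (F2), the precursor of thrombin, was at 1101, 1297 and 1290.1 TPM in WT saline, 880.01, 977 and 1003 in KO saline, 1161, 1182, 974 and 1241 in WT ConA and 1164, 1149.7, 1165 and 1196 in KO ConA. Its WT groups overlapped (-0.11 ± 0.13, adjusted p = 0.5), whereas every KO ConA library was above every KO saline library (0.30 ± 0.11, adjusted p = 0.0312). F5 encodes factor V, the cofactor that speeds thrombin formation, and was listed at 82.7, 88.9 and 96.8 TPM in WT saline and 60.1, 60.4 and 57.99 in KO saline. Under ConA it was at 39.3, 39.4, 24.4 and 53.7 TPM in WT and 40.8, 40.7, 28.8 and 39.6 in KO. The saline and ConA groups did not overlap in either genotype, and F5 fell by 1.22 ± 0.23 on the log2 scale in WT and by 0.67 ± 0.14 in KO. F10, which encodes the protease that cleaves prothrombin, was at 353 to 365 TPM in WT saline and 300.2 to 397 in WT ConA, and went from 304 to 334 to 234 to 283 in KO.

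F3, or tissue factor, is the membrane receptor that starts clotting with factor VII. It was listed at 3.53, 3.67 and 3.92 TPM in WT saline, 2.65, 2.15 and 3.58 in KO saline, 3.3, 2.75, 0.96 and 1.46 in WT ConA and 3.23, 3.73, 9.75 and 11.1 in KO ConA. All WT ConA libraries lay below WT saline without passing the test (-0.66 ± 0.26, adjusted p = 0.0564). In the KO ConA group, libraries 3 and 4 were far above libraries 1 and 2, and the rise from KO saline (0.93 ± 0.36, adjusted p = 0.0406) was lost without KO ConA 3 (0.73, adjusted p = 0.1), without KO ConA 4 and without any 1 of the KO saline libraries. Its partner F7 fell in both genotypes, from 77.2 to 100.01 to 39.3 to 46.7 TPM in WT and from 58.5 to 81.98 to 26.8 to 32.4 in KO. F9, the factor IX of the intrinsic pathway, fell by 0.71 ± 0.17 and 0.52 ± 0.15 on the log2 scale.

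Klkb1, the plasma prekallikrein of the contact system, had the largest decline of all members. It was at 113, 104 and 108 TPM in WT saline and 104, 113 and 102 in KO saline. After ConA the values were 14.6, 8.85, 9.75 and 12.8 TPM in WT and 7.33, 7.67, 9.35 and 11.5 in KO. The saline and ConA libraries were far apart in both genotypes (-3.16 ± 0.17, adjusted p = 1.5e-06, and -3.45 ± 0.16, adjusted p = 3.09e-08). Its longest coding transcript shares sequence with other annotated genes (57.3% of its 50-base stretches are found in no other gene), so its level is uncertain. The kininogens are the contact cofactors, and Kng1 fell by 0.68 ± 0.11 in WT and 0.76 ± 0.11 in KO. Kng2 was at 372, 415 and 425 TPM in WT saline, 273, 309.8 and 340.5 in KO saline, 357, 349, 298 and 365 in WT ConA and 363, 340.4, 341 and 345 in KO ConA, and passed in neither genotype after ConA. Both kininogens share reads in part (82% and 81.8% of stretches are their own), and Kng1 was at 6.37 to 9.72 times the level of Kng2 under saline and 4.05 to 5.25 times under ConA.

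Factor XI went the other way from prekallikrein. F11 was at 30.1 to 49.7 TPM in WT saline and 45.5 to 85.97 in WT ConA, and at 26.2 to 32.2 and 31.2 to 64.8 in the KO groups, which overlapped in both genotypes although the test passed (0.70 ± 0.24, adjusted p = 0.0354, and 0.66 ± 0.22, adjusted p = 0.0217). F12, the contact factor XII, was at 196 to 290.2 TPM over all libraries, with a log2 change of -0.36 ± 0.10 in KO (adjusted p = 0.0106). F13b encodes the carrier subunit of the factor XIII that cross-links fibrin. It was at 70.9, 84.7 and 86.4 TPM in WT saline, 37.97, 36.01 and 56.5 in KO saline, 34.4, 41.3, 18.3 and 46.6 in WT ConA and 42.1, 43.9, 38.7 and 47.9 in KO ConA. Only the WT saline libraries were above 60 TPM, and the other groups overlapped with one another. The catalytic subunit F13a1, mostly made outside hepatocytes, was too low to be tested. It was at 0.06 to 0.13 TPM in WT saline and 0.37 to 1.54 in WT ConA, which did not overlap, while the KO groups did (0.02 to 0.13 and 0.11 to 1.22). F8, of endothelial origin and also not tested, was lower in every WT ConA library (0.08 to 0.3 TPM) than in WT saline (0.31 to 0.46), and its KO groups overlapped (0.38 to 0.59 and 0.17 to 0.48).

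Among the 8 anticoagulants, Serpinc1, Serpind1, Proc and Proz fell and the membrane receptors Procr and Thbd rose in both genotypes. Tfpi passed in neither genotype, and Pros1 did not pass in WT and rose in KO. Serpinc1 encodes antithrombin, the main plasma inhibitor of thrombin and factor Xa. It was at 2528, 2885 and 2782 TPM in WT saline, 2612, 2636 and 2665 in KO saline, 1605, 1389, 1287 and 1382 in WT ConA and 1219, 1202, 1272 and 1200.3 in KO ConA. All ConA libraries were below all saline libraries, and the log2 change was -0.95 ± 0.12 in WT and -1.11 ± 0.11 in KO. Prothrombin mRNA was thereby at 0.34 to 0.46 of antithrombin mRNA under saline and at 0.723 to 0.997 under ConA. Serpind1, the heparin cofactor II that also inhibits thrombin, was at 301, 335 and 342 TPM in WT saline, 234, 251 and 269 in KO saline, 105, 73.3, 58.5 and 54.7 in WT ConA and 64.1, 56.7, 78.4 and 68.9 in KO ConA. It fell by 2.19 ± 0.21 on the log2 scale in WT and 1.90 ± 0.13 in KO (adjusted p = 3.28e-05 and 4.76e-07). Beside these hepatocyte-made inhibitors, 5 of 8 hepatocyte markers fell and 1 rose in WT, and 5 fell and 2 rose in KO, with none of the 8 at 0. Their part in the inhibitor values was not tested.

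Proc encodes protein C, the protease zymogen that inactivates factors Va and VIIIa once activated, and fell from 629.5 to 669 to 235 to 315 TPM in WT and from 576 to 648 to 216 to 236 in KO. Proz, or protein Z, a cofactor in the inhibition of factor Xa, was at 238, 238 and 239 TPM in WT saline and 209.7, 226 and 206 in KO saline, against 76.5, 66.8, 61.1 and 64.5 in WT ConA and 50.2, 46.6, 41.7 and 42.9 in KO ConA. The 4 groups of Proz did not overlap, and its fall was 1.82 ± 0.12 in WT and 2.22 ± 0.11 in KO on the log2 scale. The cofactor of activated protein C, Pros1, gave 22.3, 22.99 and 24.04 TPM in WT saline, 14.96, 13.2 and 13.97 in KO saline, 22.7, 30.8, 10.9 and 33.4 in WT ConA and 29.9, 28.6, 18.1 and 23.3 in KO ConA. WT ConA scattered on both sides of WT saline, with library 3 the lowest, whereas all KO ConA libraries lay above KO saline (0.76 ± 0.17, adjusted p = 0.0027). Of the 7 vitamin K dependent members (F2, F7, F9, F10, Proc, Pros1 and Proz), none rose and 4 fell in WT, and 2 rose and 5 fell in KO. Over all genes tested, 22% rose and 31% fell in WT, and 33.9% rose and 30.7% fell in KO.

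Procr, the endothelial receptor of protein C, was at 0.61, 0.27 and 0.17 TPM in WT saline, 0.78, 0.43 and 0.67 in KO saline, 18.03, 7.83, 5.14 and 5.96 in WT ConA and 18.6, 19.3, 17.8 and 8.58 in KO ConA. Every ConA library was higher than every saline library, WT ConA 1 was as high as most of KO ConA, and KO ConA 4 was near WT ConA 2. The log2 fold change was 2.78 ± 0.35 in WT and 3.34 ± 0.26 in KO (adjusted p = 0.000169 and 1.18e-06). Thbd, the thrombomodulin that turns thrombin towards protein C, was at 0.26, 0.22 and 0.22 TPM in WT saline, 0.57, 0.41 and 0.64 in KO saline, 1.83, 1.18, 0.71 and 2.07 in WT ConA and 4.92, 1.99, 3.39 and 1.89 in KO ConA. It rose by 0.95 ± 0.20 and 1.33 ± 0.24, with no overlap between saline and ConA. Tfpi, the inhibitor of the tissue factor complex, ranged over 0.47 to 2.24 TPM and passed in no comparison. Beside these receptors, 2 of 9 tested sinusoidal endothelial markers rose and 3 fell in WT, and 3 rose and 4 fell in KO. The summed endothelial level was 24.98 to 34.95 TPM in the WT mice given saline, 40.3 to 67.7 TPM in their KO counterparts, 20.7 to 52.05 TPM in WT after ConA and 26.3 to 63.5 TPM in KO after ConA, with none of the 9 markers at 0, and its part in the receptor values was not tested.

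In fibrinolysis, plasminogen and the plasma protein Hrg fell while the inhibitor Cpb2, the urokinase receptor and Thbs1 rose in both genotypes. Plg encodes plasminogen, the precursor of plasmin. It was at 1528, 1585 and 1652 TPM in WT saline, 1227, 1327 and 1275 in KO saline, 1169, 1109, 950.3 and 1227 in WT ConA and 1081, 1051, 918 and 981 in KO ConA. The ConA libraries were below the saline libraries of their genotype, by 0.52 ± 0.12 on the log2 scale in WT and 0.34 ± 0.11 in KO. Cpb2 encodes the carboxypeptidase (TAFI) that removes the plasminogen-binding lysines of fibrin. It was at 329, 332 and 347 TPM in WT saline, 240.03, 231 and 278 in KO saline, 857, 1000.03, 784 and 946 in WT ConA and 1058, 1248, 900.3 and 1023 in KO ConA. ConA raised Cpb2 by 1.41 ± 0.12 in WT and 2.07 ± 0.13 in KO (adjusted p = 1.76e-05 and 3.47e-07), with saline and ConA apart. Plasminogen mRNA was thus at 4.59 to 5.76 times the level of Cpb2 under saline and at 0.84 to 1.36 times under ConA.

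Serpinf2, the α2-antiplasmin that inhibits plasmin directly, ranged over 348 to 525 TPM and passed the test in KO (0.33 ± 0.12, adjusted p = 0.0349, against 0.018 ± 0.10, adjusted p = 0.899, in WT). Hrg, the histidine-rich glycoprotein that binds plasminogen and heparin, was at 1073, 1344 and 1354 TPM in WT saline, 759.5, 1029 and 867 in KO saline, 439, 449, 458 and 483 in WT ConA and 390.2, 310.1, 359 and 360.2 in KO ConA. No 2 of its groups overlapped, and it fell by 1.45 ± 0.12 in WT and 1.31 ± 0.13 in KO on the log2 scale. The activators themselves were barely present. Plat, tissue plasminogen activator, was listed at 0.23, 0 and 0.19 TPM in WT saline, 0.93, 0.44 and 0.66 in KO saline, 0.22, 0.19, 0.17 and 0.12 in WT ConA and 0.45, 0.35, 0.43 and 0.16 in KO ConA. Plau, the urokinase, gave 0.39, 0.22 and 0.11 TPM in WT saline, 0.6, 0.36 and 0.75 in KO saline, 1.25, 0.53, 0.28 and 0.51 in WT ConA and 0.9, 0.75, 1 and 0.31 in KO ConA. Neither reached the filter of 1 TPM in enough libraries to be tested.

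Plaur, the receptor that focuses urokinase on the cell surface, rose from near 0 in every ConA mouse. It was listed at 0.17, 0.11 and 0.28 TPM in WT saline, 0.33, 0.11 and 0.57 in KO saline, 12.6, 8.42, 6.16 and 6.32 in WT ConA and 18.3, 16.2, 31.5 and 15.3 in KO ConA. Each KO ConA library was above each WT ConA library, and KO ConA 3 was the highest. The log2 change was 2.93 ± 0.23 in WT and 3.95 ± 0.24 in KO (adjusted p = 9.55e-06 and 2.71e-07). Thbs1, thrombospondin 1, a matrix protein also stored in platelets, went from 0.22 to 0.33 to 0.79 to 2.73 TPM in WT and from 0.35 to 1.1 to 4.23 to 7.25 in KO. Neutrophils and monocytes carry Plaur, and 5 of 6 tested neutrophil markers rose in each genotype. The summed neutrophil level was 315 to 554 TPM in WT ConA against 410 to 944 TPM in KO ConA (Retnlg was at 0 in 4 of the saline libraries), and that of 4 monocyte markers 14.2 to 28.0 and 11.9 to 52.7. The 6 platelet markers summed to 7.51 to 22.1 TPM in WT ConA against 7.21 to 10.8 in KO ConA. The part of these cells in the Plaur and Thbs1 values was not tested.

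**Figure D3:**
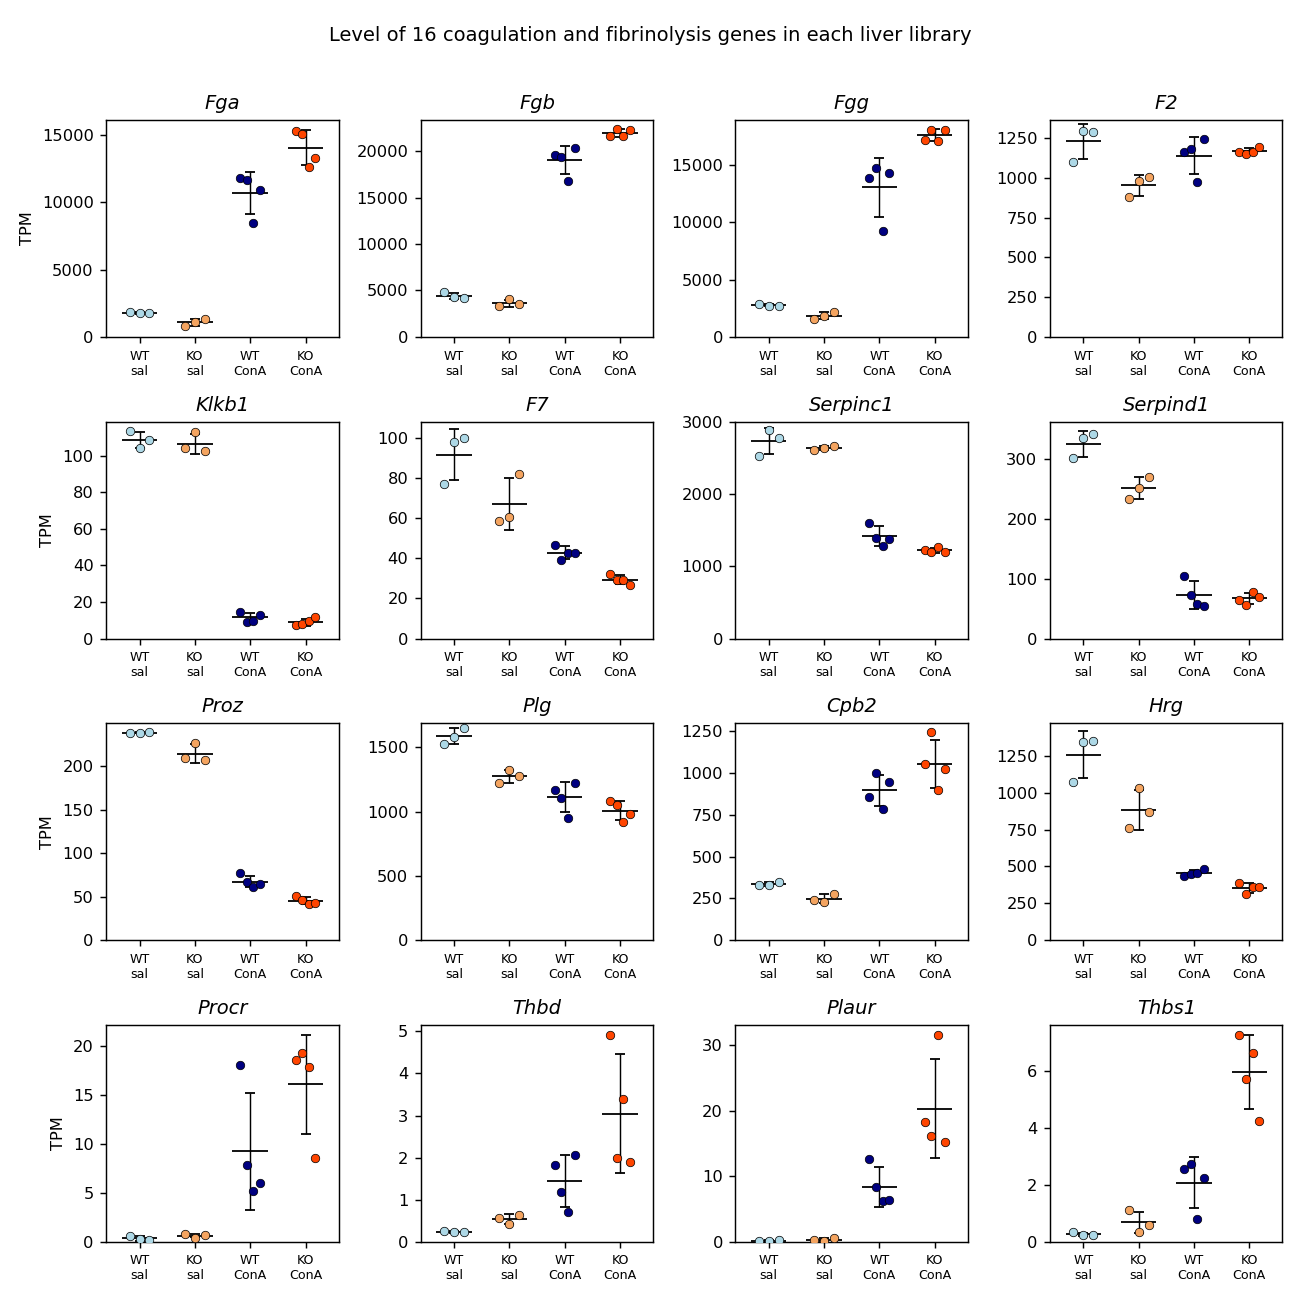
TPM (vertical axis, linear from 0, a separate scale per gene) of 16 members in each of the 14 libraries by group (horizontal axis; sal, saline). Points are libraries, long lines are means and bars are ± 1 SD; the fibrinogen chains and Plaur are highest in KO ConA, and Klkb1, Serpinc1, Serpind1 and Proz are low in both ConA groups.

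Of the 35 other genes of the pathway found in the tables, 10 rose and 4 fell of 25 tested in WT after ConA, where 22% and 31% of all genes did so. In KO, 12 rose and 6 fell of 27, against 33.9% and 30.7% of all genes. A2m, a broad protease inhibitor, rose by 5.95 ± 0.27 in WT, and Anxa2, a cell-surface receptor of plasminogen, by 2.64 ± 0.23. A2m was below 1 TPM in every WT saline library, so the filter admitted it through the ConA libraries alone. Fgl2, a membrane prothrombinase, was at 0.32 to 1.13 TPM in WT saline and 1.15 to 4.86 in WT ConA (1.19 ± 0.31, adjusted p = 0.0102). The largest declines were those of the asialoglycoprotein receptor subunits Asgr2 (-1.29 ± 0.12) and Asgr1 (-0.80 ± 0.12) and of Vkorc1 (-0.88 ± 0.13), which recycles vitamin K for the vitamin K dependent factors.

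Without ConA, KO livers had less of several clotting transcripts than WT livers by the test of all 6 saline libraries. Of 26 members tested, 10 were lower (F5, F13b, Fga, Fgg, Kng2, Serpind1, Pros1, Plg, Cpb2 and Hrg) and 1, Vwf, was higher. Among all 10459 genes, 12.9% were lower and 6.3% higher. The median log2 difference between KO and WT was -0.32 over the members and -0.10 over all genes, and rescaling each library to a common median ratio brought the latter to 0. After that rescaling, 6 members were lower (F5, F13b, Fga, Fgg, Pros1 and Cpb2), Vwf was still higher, and the split over all genes turned from 659 higher and 1350 lower to 1024 higher and 635 lower. None of the 11 calls remained when the near-identical WT saline 2 and 3 were averaged (49 of 10675 genes were then called), and none when either of them was left out. Without KO saline 1 or without KO saline 2, the calls of F5 and Pros1 alone were kept.

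Of the 26 members, 16 were lower and 2 higher in every KO saline library than in every WT saline library, the 11 called genes among them, where 29.2% and 13% of all genes were so arranged. The largest difference was that of F13b, at -0.90 ± 0.18 (adjusted p = 0.0213) and at -0.85 (adjusted p = 0.0998) with the pair averaged. Fga was lower by 0.76 ± 0.16 (adjusted p = 0.0248, and 0.101 with the pair averaged). For Pros1 the difference was -0.68 ± 0.083 (adjusted p = 0.00827, and 0.0668 averaged), and for F5 it was -0.58 ± 0.088 (adjusted p = 0.0142, and 0.0819 averaged). Over all the alternatives run, the adjusted p ranged from 0.00736 to 0.107 for F13b, 0.0106 to 0.107 for Fga, 0.0054 to 0.224 for Pros1 and 0.0113 to 0.151 for F5. Fgb was also lower in each KO saline library without passing (-0.29 ± 0.11, adjusted p = 0.104), and Proc and Serpinc1 differed by -0.081 ± 0.088 and -0.048 ± 0.094.

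Vwf, the carrier of factor VIII made by endothelium and megakaryocytes, was at 1.01, 0.53 and 0.48 TPM in WT saline and 2.12, 1.59 and 1.43 in KO saline, against 1.26, 0.53, 0.58 and 0.32 in WT ConA and 1.18, 1.59, 1.22 and 1.02 in KO ConA. KO saline was above WT saline in every library (0.70 ± 0.16, adjusted p = 0.0286, and 0.119 with the pair averaged, within a range of 0.0147 to 0.126 over the alternatives). In the same comparison, 5 of 8 tested sinusoidal endothelial markers and 2 of 5 stellate cell markers were higher in KO and none lower. Summed stellate markers were at 59.9, 15.05 and 16.4 TPM in WT saline 1, 2 and 3 and 55.6 to 95.4 in KO saline. WT saline 1 thus lay within the KO range, and only the near-identical WT saline 2 and 3 were below it. The marker calls used these libraries unaveraged, and whether they hold with the pair averaged is not given. No endothelial or stellate marker was at 0. Red blood cell markers were high in KO saline 1, at 17120.0 TPM against 1623 to 4346 in the other 5 saline libraries. The part of these markers in the Vwf value was not tested.

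Between KO and WT after ConA, no member was called in either direction by limma in the 8 ConA libraries. Among 30 members tested, 13 had an unadjusted p under 0.05, as did 16.7% of all genes. Of all 10519 genes, 0.342% were called higher in KO and 0.0856% lower, a split of 36 and 9 that became 17 and 12 after rescaling. The smallest adjusted p-values of members were those of Thbs1 (1.21 ± 0.25, adjusted p = 0.0651), Plaur (1.18 ± 0.27, 0.0674), Proz (-0.56 ± 0.13, 0.0674) and F7 (-0.53 ± 0.12, 0.0718). When the saline libraries were included in the fit to estimate the spread, F3, Plaur and Thbs1 were called higher and F7, F10 and Proz lower. That fit called 3.95% of all genes higher and 2.13% lower, more than the fit of the ConA libraries alone. The members' adjusted p-values were then 0.0335, 0.0104, 0.0092, 0.0243, 0.0155 and 0.00805 in this order. In the remaining alternatives, each left-out library included, no member was called.

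Every KO ConA library was above every WT ConA library for 5 of the 30 tested members (Fga, Fgb, Fgg, Plaur and Thbs1), where 6.37% of all genes were so arranged. Every KO ConA library was below for 6 members (F7, F10, Kng1, Serpinc1, Proz and Hrg), where the share over all genes was 4.11%. The sizes were modest for the fibrinogen chains, at 0.40 ± 0.15 for Fga, 0.21 ± 0.12 for Fgb and 0.45 ± 0.16 for Fgg (adjusted p = 0.209, 0.431 and 0.201). Among the lower genes, F10 was at -0.49 ± 0.13, Hrg at -0.37 ± 0.11, Kng1 at -0.21 ± 0.11 and Serpinc1 at -0.21 ± 0.11. F3 and the receptors Procr and Thbd had higher means in KO ConA but overlapped (1.27 ± 0.38, 0.83 ± 0.36 and 0.70 ± 0.27). Among the other genes of the pathway, Anxa2 alone was called, at 31.6, 28.5, 24.6 and 40.3 TPM in WT ConA and 65.4, 82, 97.3 and 64.04 in KO ConA (1.28 ± 0.18, adjusted p = 0.035). In this comparison no gene of the marker lists was called. The difference was above 0 for 6 of 6 tested endothelial markers (median 0.55), 2 of 2 stellate (0.79), 5 of 6 neutrophil (0.57) and 4 of 5 Kupffer cell markers (0.36), and below 0 for 3 of 3 platelet markers (-0.46) and 4 of 5 red blood cell markers (-0.35). Hepatocyte markers had a median of 0.039 (5 of 8 above 0) and the 2 monocyte markers one of 0.11. The part of these cells in the differences of the members was not tested.

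**Figure D4:**
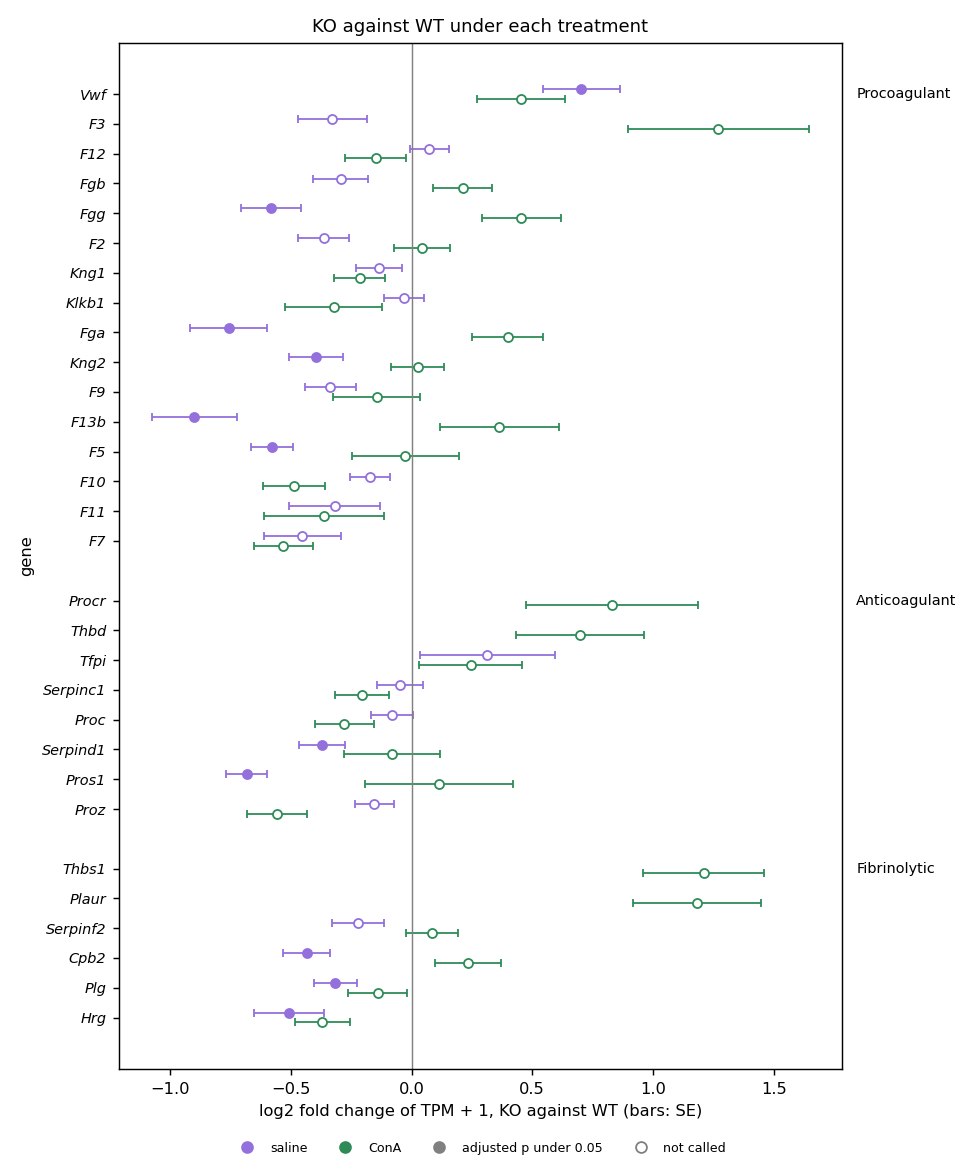
Log2 difference of TPM + 1 between KO and WT (horizontal axis, bars are SE) for each tested member (vertical axis, by role), under saline (purple) and under ConA (green). Filled points passed an adjusted p under 0.05 in the unaveraged libraries; the fibrinogen chains lie below 0 under saline and above 0 under ConA.

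Whether ConA acted differently in the 2 genotypes was tested by the interaction of genotype and ConA over all 14 libraries, where a positive value means a larger rise or a smaller fall in KO. Of 30 members tested, 3 were called higher and none lower, 11 having an unadjusted p under 0.05. Over all 11327 genes, 2.64% were called higher and 2.14% lower, and 25.3% had an unadjusted p under 0.05. The 3 were Fga (1.16 ± 0.22, adjusted p = 0.0213), Fgg (1.03 ± 0.22, adjusted p = 0.028) and Cpb2 (0.67 ± 0.18, adjusted p = 0.0459). The median over all genes was 0.14 and became 0 after rescaling, which left Fga at 0.98 and Fgg at 0.86 with their calls. Under the same rescaling, Cpb2 (0.49, adjusted p = 0.0806) lost its call, F13b (1.09) gained one and Proz (-0.58) was called lower.

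The interaction depended on the saline libraries. With WT saline 2 and 3 averaged, the values were 1.17 for Fga, 1.05 for Fgg and 0.66 for Cpb2, but no member was called (adjusted p = 0.0753, 0.0952 and 0.124). All 3 calls were also lost without WT saline 2, WT saline 3, KO saline 1 or KO saline 2. Over the alternatives, the adjusted p ranged from 0.0148 to 0.0774 for Fga, 0.0149 to 0.0956 for Fgg and 0.0331 to 0.131 for Cpb2. Part of each value came from the saline side, since KO was below WT before ConA (Fga -0.76, Fgg -0.58 and Cpb2 -0.43) and above it after ConA (0.40, 0.45 and 0.23). The comparisons share their saline and ConA libraries, so they are not independent of each other. F13b missed the threshold at 1.26 ± 0.35 (adjusted p = 0.0501), F3 was at 1.59 ± 0.49 (adjusted p = 0.073) and Fgb at 0.51 ± 0.16 (adjusted p = 0.078). Klkb1, Serpinc1, Serpind1 and Proc, which fell in both genotypes, had interactions of -0.29 ± 0.24, -0.16 ± 0.14, 0.29 ± 0.26 and -0.20 ± 0.15, none of which passed.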

How the data were processed

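Liver RNA of 14 mice was read on a BGISEQ-500 (single-end, 50 bases), and the authors deposited TPM values for 17656 genes per library. The submitters' processing notes name Bowtie2, RSEM 1.3.1 and GRCm38.p6, while the study's methods name STAR and HTSeq, so the tool that made the TPM is open. Each deposited TPM column sums to about 1000000. TPM carries no read number, so depth and counting error are unknown, and the spread between mice is the only error given. The labels call the libraries biological replicates.

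All genes that reached 1 TPM in at least the smaller group's number of libraries were fitted on log2(TPM + 1) with the moderated linear model of limma 3.58.1 (trended variance) under R 4.3.3. P-values were adjusted by Benjamini-Hochberg over all genes of a fit, and calls were made at an adjusted p under 0.05. Fold changes are on this log2(TPM + 1) scale and understate changes of low genes. A comparison was fitted on its own 2 groups alone, and the interaction on all 14 libraries. The study used edgeR on counts, which TPM does not allow. The procedure was tested on simulated data.

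The members and gene lists were chosen with earlier results of these data known. Values in every library are given for members called between genotypes or by the interaction, for the 10 largest changes among those called in WT after ConA, and for 10 central genes. Of the other pathway genes, Fgl2 and the 3 largest changes each way in WT are named, except 1 gene that is not reported here. Genes and promoters were matched to RefSeq tables of GRCm38.p6 by gene identifier, and 50-base stretches to GENCODE vM21 transcripts.

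The following settings were varied one at a time: the pseudocount (0.1), the filter (TPM of 5, or none), the scaling (median-ratio rescaling per library), the spread (all 14 libraries in each fit, or robust moderation), the call rule (also requiring a log2 fold change of 1), the pairing (replicate block), the near-identical WT saline 2 and 3 (averaged) and the libraries (each left out in turn). Figures and checks used Python with pandas and matplotlib.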

Additional observations from a re-analysis of the deposited data

Results flagged for a closer look

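In the groups of 4 mice, a library was marked when its gap to the nearest other value exceeded Dixon's 95% critical share of the range of its group (chance marks about 1 in 20 groups). Among 68 groups of values, 5 were marked. In WT ConA, library 3 was the lowest for Fgg (9221 TPM against 13879.9 to 14718, a gap of 0.848 of the range) and for Kng1 (1563 TPM against 1712 to 1731, 0.886), and library 4 was the highest for F13a1 (1.54 TPM against 0.37 to 0.57, 0.8291). In KO ConA, library 3 was the lowest for F5 (28.8 TPM against 39.6 to 40.8, 0.899) and library 4 the lowest for Procr (8.58 TPM against 17.8 to 19.3, 0.864).

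The ConA response differed between the genotypes by the limma interaction for Fga (1.16 on the log2 scale, adjusted p = 0.0213), Fgg (1.03, adjusted p = 0.028) and Cpb2 (0.667, adjusted p = 0.0459). Each had a larger rise in KO. For each, every ConA library of either genotype lay above all saline libraries, which does not bear on the difference between the genotypes. None of the 3 was called with WT saline 2 and 3 averaged (adjusted p = 0.0753, 0.0952 and 0.124), and over all alternatives the adjusted p ranged from 0.0148 to 0.0774 for Fga, 0.0149 to 0.0956 for Fgg and 0.0331 to 0.131 for Cpb2.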

How the results depend on the processing

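The ConA responses were the most stable results. In WT, 6 to 9 members rose and 12 to 13 fell when single libraries were left out, and in KO 10 to 11 rose and 11 to 13 fell. The low of 6 in WT came without WT ConA 1 and without WT ConA 4, where Thbd and Thbs1 no longer passed the filter and F11 lost its call. With a log2 fold change of at least 1 required, 8 rose and 7 fell in KO, fewer by construction. TPM gives no depth, so members below 1 TPM could not be tested.

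KO saline against WT saline was the least stable. The count of lower members was 4 without a filter, 6 after median-ratio rescaling, 0 at a log2 fold change of at least 1, 1 with all 14 libraries in the fit and 0 with WT saline 2 and 3 averaged, and 0 to 12 with single libraries left out. The call of Vwf as higher was lost (0) at a filter of TPM 5, where Vwf is not tested, at a log2 fold change of at least 1, with all 14 libraries and with the pair averaged, and 0 to 1 were higher with single libraries left out. For KO ConA against WT ConA, all 14 libraries in the fit gave 3 higher and 3 lower, and no left-out library gave a call. By the interaction, 1 was called higher without a filter, 0 with the pair averaged and 0 to 4 with single libraries left out, and 1 was called lower after rescaling. Apart from the constructions named, the cause was not tested.

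With a replicate block, 9 members rose and 12 fell in WT, 11 rose and 10 fell in KO, 1 was higher and 12 lower in KO saline, none was called between the ConA groups, and 2 were called higher by the interaction. Same-numbered libraries of compared groups had correlations of -0.203 to 0.416 in their deviations from the group means. The highest was that of KO ConA 3 with WT ConA 3, the libraries that stood apart from their groups. KO saline 1 and WT saline 1 gave 0.352. These correlations do not settle whether mice with the same number were handled together.

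Values that changed sign were all uncalled. After rescaling they were F10 (0.0893) and Pros1 (0.059) in WT after ConA, F13b (-0.0623) and Tfpi (-0.000716) in KO after ConA, Klkb1 (0.0913), Serpinc1 (0.0739) and Proc (0.0413) in KO saline against WT saline, F2 (-0.013) and Kng2 (-0.0301) in KO ConA against WT ConA, and Plg (-0.00264) and Hrg (-0.0379) in the interaction. The replicate block turned F13b in KO (-0.0353). The averaged pair turned Tfpi in WT (-0.0036) and F11 (0.0674) and Tfpi (0.0447) in the interaction. With single libraries left out, the WT response ranged from -0.058 to 0.0761 for F10, -0.0136 to 0.338 for Tfpi and -0.214 to 0.296 for Pros1, and the KO response from -0.103 to 0.214 for F13b and -0.24 to 0.196 for Tfpi. Klkb1 in KO saline against WT saline ranged from -0.072 to 0.000749. In KO ConA against WT ConA the ranges were -0.2 to 0.108 for Serpind1, -0.0314 to 0.0854 for F2, -0.0404 to 0.0575 for Kng2, -0.214 to 0.296 for Pros1 and -0.228 to 0.139 for F5. For the interaction they were -0.167 to 0.0732 for F7, -0.267 to 0.139 for F11 and -0.35 to 0.0861 for Tfpi.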
